A study of Mus musculus with 12 samples.

Results

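The immediate early genes described here are Fos, Fosb, Jun, Junb, Jund, Egr1, Ier2, Ier3, Atf3 and Zfp36. The rule for the 10 members was a list of names of AP-1 and early response genes, drawn up with earlier results of these data known, and all 10 were found among the 27998 genes of the count tables. The question was whether their levels in mouse hematopoietic stem and progenitor cells (HSPCs) followed genotype, time point or single libraries.

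Single-cell RNA-seq (10x Genomics, 3' tags counted by unique molecular identifier, UMI) was performed on bone marrow cells enriched for the receptor c-Kit by magnetic separation. WT mice were negative for Mx1-Cre. E2-KO mice carried Mx1-Cre and floxed Ezh2, the gene of a histone H3 lysine 27 methyltransferase. G12D mice carried Mx1-Cre and an inducible NRas G12D allele, and G12D/E2-KO mice carried Mx1-Cre with both. All groups received pIpC, an interferon inducer. The labels give the age at injection as 8 to 12 weeks, while the study's text gives a younger age. Mx1-Cre is itself switched on by interferon in hematopoietic and other cells. Since WT mice lacked the recombinase, its presence cannot be told apart from the mutations in comparisons with WT. T1 cells were collected 2 weeks after pIpC, T2 cells after 2 months and T3 cells after 4 months, with 1 library for each of the 4 genotypes at each of the 3 time points (12 libraries). The labels do not give the number of animals behind a library, nor a processing day. Each genotype therefore has n = 3 libraries, which also differ in time point.

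The tables held 35597 cells. In the G12D T1 table, 2896 of 5648 cells (51.3%) matched a cell of the G12D/E2-KO T1 table, 1494 of them in every gene, and the other 65 pairs of libraries shared 0 cells. Matched cells were counted in G12D/E2-KO T1 only, which left 32701 cells and 223622434 UMIs, with 2350 to 3767 cells and 12636998 to 23646292 UMIs per library. Ezh2 was at 103 to 133 CPM (UMIs of the gene per 1000000 UMIs) in WT, 27.7 to 34.6 in E2-KO, 81.7 to 103 in G12D and 20.7 to 25.3 in G12D/E2-KO. Nras was at 52.5 to 80.3 CPM, which does not check the allele, since 3' tags do not read the mutated codon. Xist RNA was present in WT T3, E2-KO T3 and G12D T3 and not in the other 9 libraries, so the sex of the animals differed between libraries of WT, E2-KO and G12D. In these genotypes sex cannot be told apart from T3. No G12D/E2-KO library had Xist RNA, so at T3 sex also differed between this genotype and the others. A count of 3 UMIs, the limit that a count of 0 allows, was worth 0.127 to 0.237 CPM, and all such limits and intervals cover counting error only.

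Immediate early genes are transcribed at once when a cell is stimulated, from promoters that are already accessible, and their mRNAs decay quickly. Fos and Fosb encode Fos family proteins that dimerize with the Jun family proteins (Jun, Junb, Jund) to form the transcription factor AP-1. Egr1 encodes a zinc finger transcription factor, Atf3 a stress-induced bZIP factor, Zfp36 the protein tristetraprolin that promotes decay of AU-rich mRNAs, and Ier2 and Ier3 encode early response proteins. In bone marrow, Junb is known to restrain the expansion of myeloid cells and Egr1 is known for keeping stem cells quiescent. The same genes are also known to be induced while tissue is dissociated and sorted.

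The promoter letters of Fos, Fosb and Junb are shown because AP-1 genes are known targets of factors that bind cAMP response elements. In RefSeq (GRCm38.p6), 8 of the 10 members had a promoter window that was used, from 250 bases before to 50 bases after the start. Each stretch covers 110 to 21 bases before the start, with TGACG, the core of a cAMP response element, and TATAAA, the core of a TATA box, in capitals.
Fos, chr12:85473780-85473869, plus strand: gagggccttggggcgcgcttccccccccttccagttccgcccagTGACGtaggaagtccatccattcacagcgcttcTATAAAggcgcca
Fosb, chr7:19310066-19310155, minus strand: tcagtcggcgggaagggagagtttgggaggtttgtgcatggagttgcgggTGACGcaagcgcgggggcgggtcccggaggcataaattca
Junb, chr8:84978769-84978858, minus strand: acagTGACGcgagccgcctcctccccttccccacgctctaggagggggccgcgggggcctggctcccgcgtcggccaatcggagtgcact
On the strand shown, TGACG began 129 and 66 bases before the start in Fos, the former outside the stretch, 60 in Fosb and 106 in Junb, and TATAAA 33 bases before the start in Fos. On either strand of the 300-base window, TGACG was found in 4 of the 8 members (Atf3, Fosb, Junb and Fos) and in 20.8% of 32851 windows. TATAAA was found in 2 of 8 (Junb and Fos) and in 13.6% of windows. The full palindrome TGACGTCA, which contains TGACG, was in 0 of 8 and in 1.79% of windows, and TGANTCA, the AP-1 site, in 0 of 8 and 7.81%. The CArG box bound by serum response factor was in 1 of 8 (Zfp36) and in 1.63%. These matches describe letters in a window and not binding.

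The members were counted at very different depths. Ier2 (chromosome 8, 84661331 to 84662852, GRCm38) had 13249 UMIs, Jund (chromosome 8, 70698949 to 70700616) 7339 and Junb (chromosome 8, 84974484 to 84978718) 3876. Ier3 (chromosome 17) had 1671 UMIs, Zfp36 (chromosome 7) 1670, Jun (chromosome 4) 705, Fos (chromosome 12) 650 and Egr1 (chromosome 18) 167. Atf3 (chromosome 1) had 20 UMIs and Fosb (chromosome 7) 15, each with UMIs in 8 of 12 libraries and with 3 or fewer in 11 of 12. Statements about Atf3 and Fosb are therefore limited to their counts. Together the 10 members had 29362 UMIs, and their summed level was 122 to 139 CPM in WT, 77.9 to 116 in E2-KO, 138 to 154 in G12D and 103 to 175 in G12D/E2-KO.

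Cells were placed in classes by marker genes, none of which is a member, and a class is called "-like" after its markers. Of the 32701 cells, 29409 were placed in 12 classes and 3292 (10.1%) were not. At least 20 cells in every library were found in 7 classes: HSC/MPP-like (1736 cells), GMP/early GN-like (granulocyte-monocyte progenitors and early neutrophils, 5498), late GN-like (later neutrophil cells, 8358), ProMo-like (monocyte progenitors, 2209), Meg-like (megakaryocytic, 781), MEP/EryP/early Ery-like (megakaryocyte-erythroid and early erythroid progenitors, 4554) and late Ery-like (later erythroid cells, 2712). Among the 10 genes of highest fold in a class, 5 to 7 were its own markers, other than in the MEP/EryP/early Ery-like class, where 1 (Car1) was. None of the 7 had a marker of another class among these 10 genes. Since the cells were placed by these markers, this does not test the classes. By the marker score used for placing (minimum 0.5), ProMo-like cells had a median of 1.05 for GMP/early GN. Late Ery-like cells had a median of 0.696 for MEP/EryP/early Ery. In the other tested classes the next class had a median score of at most 0.235.

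Each member had its own pattern over the classes. Ier2 was highest in late GN-like cells, at 130 CPM (mean of 12 libraries), against 65.2 in GMP/early GN-like cells (higher in 12 of 12 libraries, exact sign-flip permutation test over libraries, two-sided p = 0.000488, adjusted p = 0.00488 over 60 tests of neighbouring classes). GMP/early GN-like, ProMo-like (60.1), HSC/MPP-like (51.3) and Meg-like cells (36.2 CPM) followed without a difference between neighbours past the threshold. Ier2 was lower in MEP/EryP/early Ery-like cells (20.0; below Meg-like in 12 of 12, adjusted exact p = 0.00488) and in late Ery-like cells (12.2 CPM; adjusted exact p = 0.00651). The smallest p that 12 libraries allow in this test is 0.000488.

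Jund, the Jun family member that is known to be expressed in unstimulated cells, ran the other way. It was at 80.7 CPM in late Ery-like and 49.6 in MEP/EryP/early Ery-like cells (higher in late Ery-like cells in 11 of 12 libraries, adjusted exact p = 0.00651). Meg-like (43.8) and HSC/MPP-like cells (39.7) followed, without a difference past the threshold between MEP/EryP/early Ery-like and Meg-like or between Meg-like and HSC/MPP-like cells. HSC/MPP-like cells stood above late GN-like cells (10.1 CPM) in 12 of 12 libraries (adjusted exact p = 0.00488), and GMP/early GN-like (9.34) and ProMo-like cells (8.28) were close to the latter. In classes too small to test, pooled Jund was 102 CPM in T/NK-like and 91.0 in B-lymphoid-like cells. It was 194 CPM in dendritic-like (DC) cells (95% Poisson interval 176 to 213), where G12D/E2-KO T1 gave 268 of 428 UMIs, and 126 CPM without that library (interval 108 to 148).

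Junb was at 23.7 CPM in HSC/MPP-like, 23.6 in Meg-like, 23.4 in ProMo-like and 22.3 in GMP/early GN-like cells, with no difference between neighbours past the threshold. It was lower in MEP/EryP/early Ery-like cells (14.6; 12 of 12 libraries, adjusted exact p = 0.00488), late GN-like cells (8.19; adjusted exact p = 0.00732) and late Ery-like cells (2.82 CPM; adjusted exact p = 0.00732). Of the neutrophil classes, the earlier one thus held more Junb and the later one more Ier2.

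Fos was highest in ProMo-like cells (7.71 CPM), then in GMP/early GN-like (5.22; lower in 11 of 12, adjusted exact p = 0.00732) and late GN-like cells (2.23; lower in 12 of 12, adjusted exact p = 0.00488). Below these, late Ery-like (1.80), HSC/MPP-like (1.31), Meg-like (1.01) and MEP/EryP/early Ery-like cells (0.398 CPM) did not differ between neighbours past the threshold. GMP/early GN-like and ProMo-like cells held 34.8% and 27.5% of all Fos UMIs, against 19.5% and 9.38% of all UMIs. Pooled Fos in dendritic-like cells was 10.4 CPM (95% Poisson interval 6.59 to 15.6), with 17 of 23 UMIs from G12D/E2-KO T1, and 4.74 CPM without that library (interval 1.74 to 10.3).

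Ier3 stood out in HSC/MPP-like cells, at 21.1 CPM against 9.81 in late GN-like cells (12 of 12 libraries, adjusted exact p = 0.00488), and was at 4.69 to 7.72 CPM in the other 5 classes. Pooled Ier3 was 26.7 CPM in basophil/mast-like cells (interval 21.3 to 33.0). Zfp36 was at 15.7 CPM in HSC/MPP-like, 15.6 in late GN-like, 12.9 in Meg-like, 8.01 in ProMo-like and 4.74 in GMP/early GN-like cells, and fell to 1.32 in MEP/EryP/early Ery-like cells (adjusted exact p = 0.00651). Pooled Zfp36 was 26.7 CPM in dendritic-like (interval 20.3 to 34.4) and 18.2 in B-lymphoid-like cells (interval 15.4 to 21.3). In the other small classes it was at 3.45 to 10.2 CPM. Jun ranged from 0.723 CPM in GMP/early GN-like to 5.53 in Meg-like cells, with no neighbours that differed past the threshold, and was at 15.9 CPM in pooled B-lymphoid-like cells (interval 13.3 to 18.8). Egr1 was at 2.67 CPM in Meg-like, 1.52 in MEP/EryP/early Ery-like and 1.07 in HSC/MPP-like cells and at 0 in ProMo-like cells, again without such a difference between neighbours. Pooled Egr1 was 5.88 CPM in dendritic-like (13 UMIs, interval 3.13 to 10.1) and 2.90 in B-lymphoid-like cells (interval 1.87 to 4.27). In the other small classes it was at 0.444 to 2.36 CPM. In bulk sums over a library, fewer cells of a class and less RNA per cell cannot be told apart, so for the members both the sums and the classes are given in what follows.

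**Figure D1:**
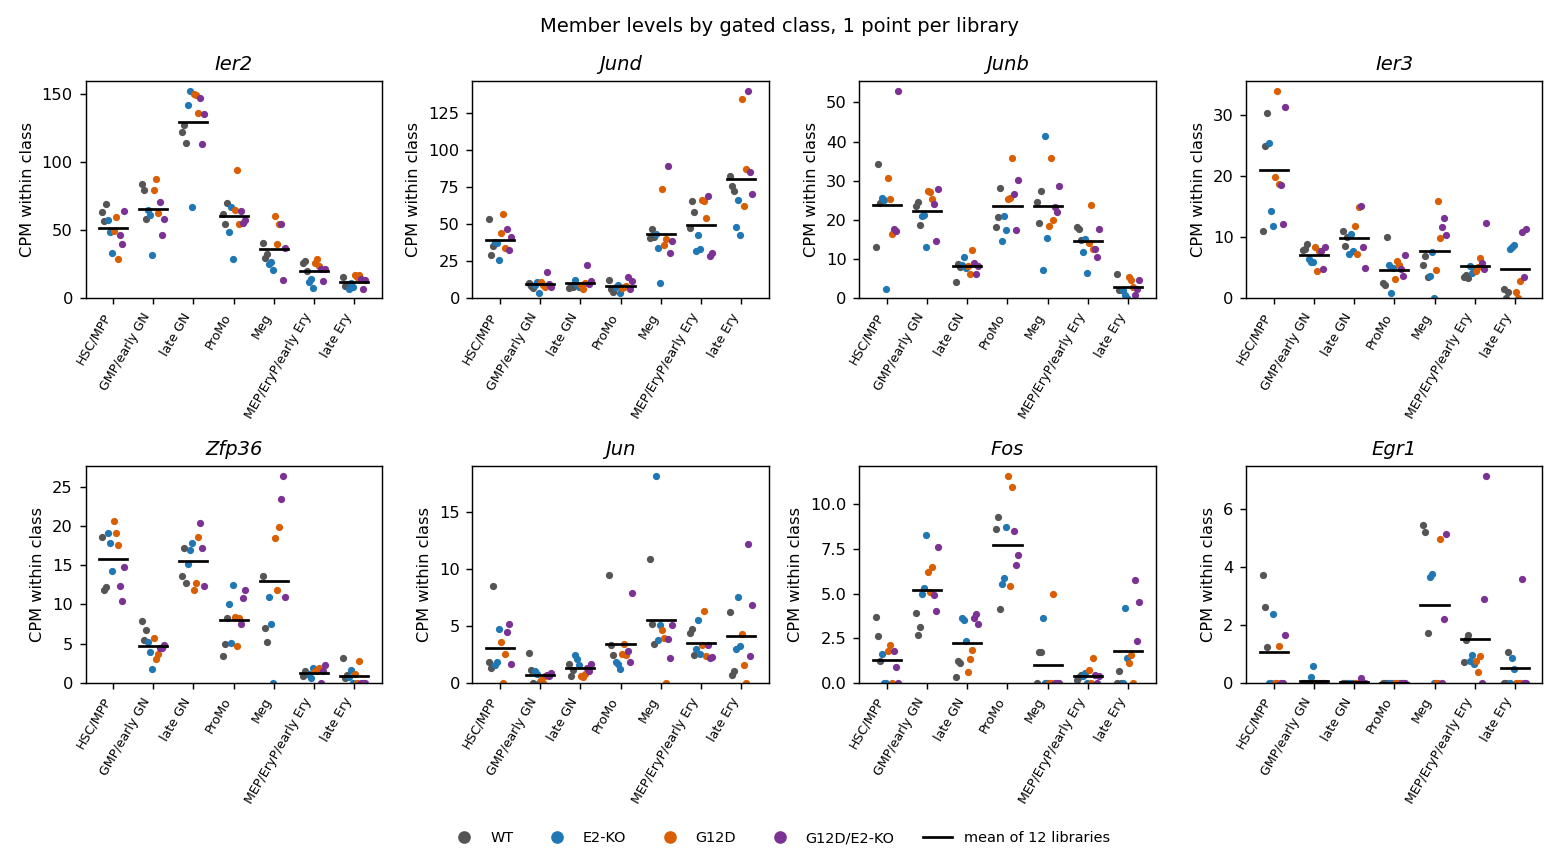
Level of 8 members (CPM within the class, linear axes that start at 0) in the 7 tested classes. Each point is 1 library, coloured by genotype, and the black line is the mean of 12 libraries. Ier2 peaks in late GN-like cells (mean 130 CPM) and Jund in late Ery-like cells (mean 80.7 CPM).

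With all cells of a library summed, 12848 genes were tested, among them 8 of the 10 members, since Atf3 and Fosb were under the filter on low counts. Each fit was edgeR's quasi-likelihood test with genotype and time point as factors, with Benjamini-Hochberg adjustment over all genes tested and a threshold of 0.05. Ier2 and Egr1 were the 2 members that differed among the 4 genotypes, where 5.44% of all genes were called. In pairs with WT, 0 members were called in E2-KO (1.59% of all genes called), G12D (0.109%) or G12D/E2-KO (5.69%). At an unadjusted p under 0.05 were 1 of 8 members in E2-KO (16.1% of all genes), 2 in G12D (11.8%) and 2 in G12D/E2-KO (26.2%). DESeq2, which called more genes, called Ier2 and Egr1 among genotypes (16.2% of all genes), Ier2 in E2-KO (3.53%), 0 members in G12D (1.11%) and Fos in G12D/E2-KO (10.2%).

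Ier2 was at 61.1, 64.6 and 53.7 CPM in WT at T1, T2 and T3, at 45.5, 45.2 and 23.4 in E2-KO, at 80.1, 77.1 and 67.1 in G12D and at 77.1, 47.6 and 54.5 in G12D/E2-KO. The 3 E2-KO libraries lay below and the 3 G12D libraries above every WT library, while G12D/E2-KO overlapped WT. The difference among genotypes had an adjusted p of 0.0384 in edgeR's quasi-likelihood test. Against WT, the log2 change was -0.72 in E2-KO (SE 0.19, adjusted p = 0.0938), 0.35 in G12D (SE 0.19, adjusted p = 0.483) and -0.07 in G12D/E2-KO (SE 0.19, adjusted p = 0.835). The call among genotypes was lost (adjusted p 0.0550 to 0.115) without WT T2, WT T3 or any 1 of the 3 E2-KO or 3 G12D libraries, and it was 0.366 with the classes weighted equally in each library, a fit that also used limma on log2(CPM + 1). That test and scale without the weighting gave 0.0289.

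The share of late GN-like cells, the class with the most Ier2, was below WT in every E2-KO library and within the WT range in G12D. In G12D/E2-KO this share fell from T1 to T3 (shares not tested). It was 27.0, 30.8 and 36.6% in WT, 13.1, 10.5 and 14.7% in E2-KO, 34.0, 33.4 and 36.2% in G12D and 37.2, 21.5 and 13.8% in G12D/E2-KO. For a make-up level, each class's share of a library's UMIs was combined with its pooled WT level, with cells not placed as a further group. These UMI shares are not the cell shares above. They gave an Ier2 level of 55.0, 52.3 and 50.9 CPM for E2-KO, above the measured 45.5, 45.2 and 23.4. For G12D they gave 70.8, 63.1 and 71.3 CPM, against the measured 80.1, 77.1 and 67.1. The part that class make-up has in the call was not tested further than by the equal weighting. That weighting used only the 7 tested classes, without the small classes and the cells not placed. Meg-like cells (781) then counted as much as late GN-like cells (8358). The effect of a fixed make-up therefore cannot be told apart from that of cells left out or of classes with few cells.

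Egr1 was at 0.535, 0.804 and 0.768 CPM in WT, 0.632, 0.649 and 1.42 in E2-KO, 0.203, 0.228 and 0.237 in G12D and 0.763, 0.862 and 2.27 in G12D/E2-KO. The 3 G12D libraries, with 4 UMIs each, lay below all other 9 libraries, and the T3 libraries of E2-KO and G12D/E2-KO lay above the rest. The difference among genotypes had an adjusted p of 0.0410 (edgeR). Against WT, the log2 change was -1.61 in G12D (SE 0.44, adjusted p = 0.261), 0.25 in E2-KO (SE 0.37, adjusted p = 0.778) and 0.67 in G12D/E2-KO (SE 0.36, adjusted p = 0.258). WT make-up levels for G12D were 0.413, 0.605 and 0.381 CPM, above each of the measured values. The call was lost (adjusted p 0.0612 to 0.134) without WT T1, WT T3, G12D/E2-KO T2 or any 1 of the 3 E2-KO or 3 G12D libraries, and it was 0.170 with the matched cells counted in both tables. With classes weighted equally it was 0.387, and with limma on log2(CPM + 1) without the weighting 0.0513, a scale that shrinks differences of a gene at this level.

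Fos was at 2.02, 1.90 and 1.38 CPM in WT, 2.47, 2.60 and 2.29 in E2-KO, 4.06, 1.99 and 4.87 in G12D and 4.40, 2.69 and 4.34 in G12D/E2-KO. All E2-KO and G12D/E2-KO libraries lay above WT, and G12D T2 lay within it. The log2 change against WT was 1.01 in G12D/E2-KO (SE 0.31, adjusted p = 0.0700), 1.02 in G12D (SE 0.31, adjusted p = 0.292) and 0.46 in E2-KO (SE 0.31, adjusted p = 0.496), all by edgeR and short of the threshold. Over the libraries left out, the log2 change in G12D/E2-KO ranged from 0.80 (without WT T3, adjusted p = 0.306) to 1.29 (without WT T2, adjusted p = 0.0622), and the adjusted p was under the threshold without G12D T2 (0.0387). On log2(CPM + 1) by limma it was 0.78 (adjusted p = 0.0616), and 0.35 (adjusted p = 0.482) on that scale with classes weighted equally in each library. For G12D/E2-KO, UMI shares of the classes at pooled WT levels gave 2.58, 2.54 and 2.42 CPM, below the measured values.

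Ier3 was at 5.53, 5.96 and 7.38 CPM in WT, 6.11, 5.66 and 6.49 in E2-KO, 7.76, 6.20 and 9.68 in G12D and 10.7, 6.19 and 12.6 in G12D/E2-KO. Both high libraries of G12D/E2-KO were T1 and T3, and its T2 library lay within WT (log2 change 0.55, SE 0.19, edgeR adjusted p = 0.105). Junb was at 17.0, 18.1 and 15.6 CPM in WT, 14.5, 17.0 and 7.60 in E2-KO, 18.3, 20.0 and 22.0 in G12D and 18.4, 12.8 and 25.1 in G12D/E2-KO, with adjusted p from 0.484 to 0.873 in the 3 edgeR comparisons with WT. Junb had its lowest and highest values in 2 T3 libraries, E2-KO and G12D/E2-KO.

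Jund, Jun and Zfp36 showed no difference among genotypes past the threshold (edgeR adjusted p 0.766, 0.610 and 0.252). Jund was at 38.1, 36.9 and 34.2 CPM in WT, 29.5, 35.3 and 28.2 in E2-KO, 31.6, 36.3 and 22.0 in G12D and 48.8, 23.2 and 21.3 in G12D/E2-KO. G12D/E2-KO held both the highest and the lowest Jund value of the 12 libraries. Without G12D/E2-KO T1, Jund was lower in G12D/E2-KO than in WT by edgeR (log2 change -0.82, adjusted p = 0.0260), against -0.32 (adjusted p = 0.497) with it. Jun was at 2.26 to 5.29 CPM over the 12 libraries, highest in WT T1, and Zfp36 at 5.19 to 10.4 CPM, highest in G12D/E2-KO T1.

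Counting libraries without a model, groups of 3 that did not overlap with WT were seen for 2 members in E2-KO (Ier2 lower, Fos higher; 25.7% of all genes), 3 in G12D (Ier2 and Junb higher, Egr1 lower; 16.8% of all genes) and 1 in G12D/E2-KO (Fos higher; 25.2% of all genes). Of the 8 members tested, the count in E2-KO was near the share of all genes, in G12D above it and in G12D/E2-KO below it. The median log2 change of the tested members against WT was -0.16 for E2-KO, 0.27 for G12D and 0.13 for the double mutant G12D/E2-KO, where all genes tested had medians of 0.00, -0.01 and 0.01. The 3 comparisons share the WT libraries.

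**Figure D2:**
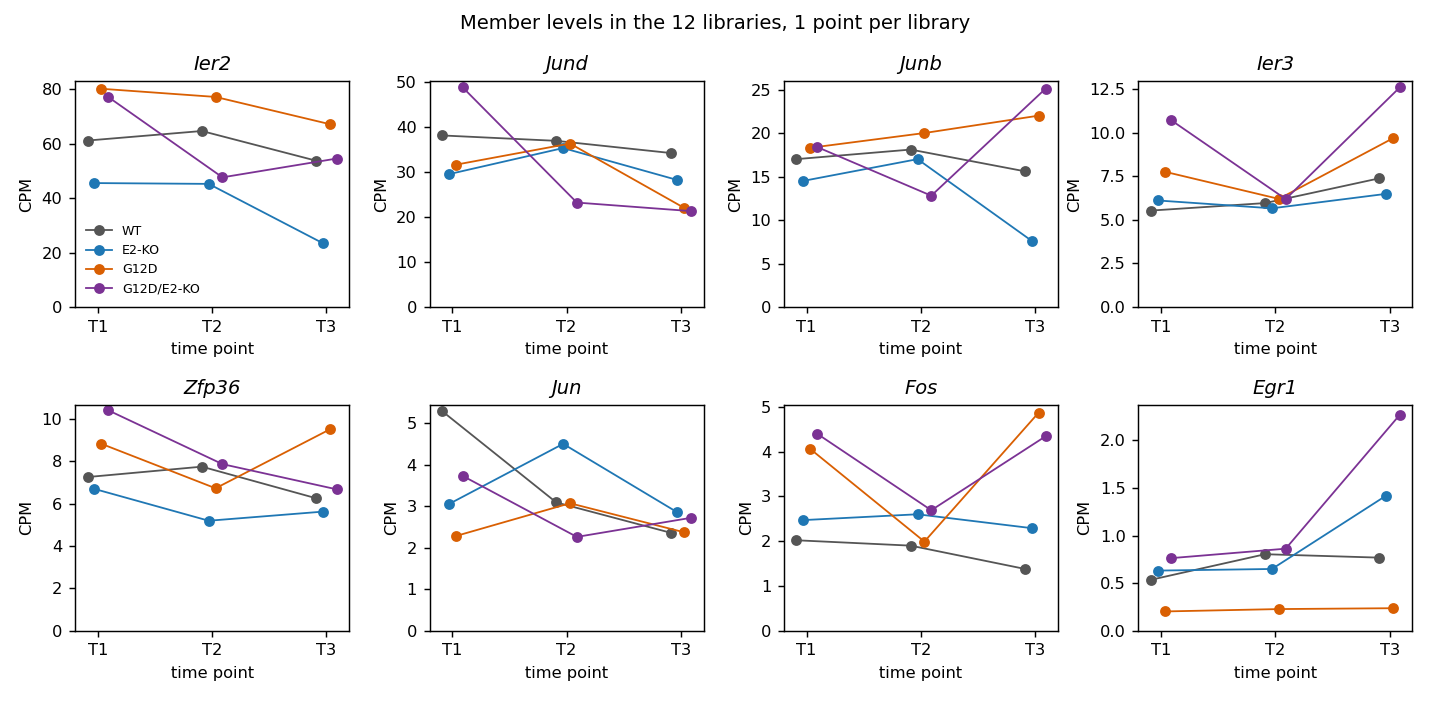
Level of 8 members in the 12 libraries (CPM of all counted cells, linear axes that start at 0) by time point, 1 point per library, with lines joining the libraries of a genotype. Ier2 lies lowest in E2-KO at each time point (23.4 to 45.5 CPM) and Egr1 lowest in G12D (0.203 to 0.237 CPM), while Jund in G12D/E2-KO goes from the highest (48.8) to the lowest (21.3 CPM) of its panel.

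No member was called between time points, where the 4 genotypes served as replicates. The joint test of time point called 0 of 12848 genes (0% of all genes) by edgeR, with 1258 genes and 3 members (Ier3, Egr1 and Ier2, adjusted p = 0.503 each) at an unadjusted p under 0.05. T2 against T1, T3 against T1 and T3 against T2 also called 0 genes, with 599, 1677 and 1438 at an unadjusted p under 0.05. DESeq2 called 0 members in each of them, with 0.202% of all genes called in the joint test and 0.0467%, 0.140% and 0.296% in the 3 pairs.

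In WT, E2-KO and G12D, Xist RNA was present at T3 only. Time and sex cannot be told apart there in comparisons with T3. Ier2 was lower at T3 than at T1 in 4 of 4 genotypes (means 49.7 and 65.9 CPM, log2 change -0.50, SE 0.17, edgeR adjusted p = 0.365). Egr1 was higher at T3 than at T1 in 4 of 4, by 0.97 on the log2 scale (SE 0.33, edgeR adjusted p = 0.365), although G12D hardly moved (0.203 and 0.237 CPM). Jund was lower at T3 than at T1 in 4 of 4 (means 26.4 and 37.0 CPM, log2 change -0.54, SE 0.25, edgeR adjusted p = 0.386). Ier3 was the 1 member whose libraries at T3 (6.49 to 12.6 CPM) all lay above those at T2 (5.66 to 6.20), higher by 0.54 on the log2 scale (SE 0.17, adjusted p = 0.408 by edgeR), and 2.76% of all genes had no overlap in that comparison. For T2 against T1 and T3 against T1 the number of members without overlap was 0, with 1.11% and 2.29% of all genes.

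Within single classes, 2 to 6 members passed the filter on low counts, and each member counted once in each class where it was tested, for 31 tests. Of these, 1 was called among genotypes (3.14% of all tests of genes in classes), 1 in E2-KO against WT (1.43%) and 2 in G12D/E2-KO against WT (2.60%), while G12D against WT had 0 (0.170%). They were Ier2, Ier3 and Fos, of which Fos passed the filter only through the groups in which it was high, so its call is given as a description. In MEP/EryP/early Ery-like cells, Ier2 was at 25.6, 27.0 and 20.1 CPM in WT, 11.7, 14.5 and 7.37 in E2-KO, 25.9, 28.7 and 23.4 in G12D and 21.7, 12.7 and 21.4 in G12D/E2-KO. All 3 E2-KO libraries and G12D/E2-KO T2 lay below the lowest WT library. Of the 5 members tested in the class, 3 (Ier2, Jund and Ier3) had no overlap between E2-KO and WT, as had 21.1% of all genes. Ier2 fell in E2-KO by 1.05 on the log2 scale (SE 0.20, edgeR adjusted p = 0.00612), from a mean of 24.2 ± 3.65 to 11.2 ± 3.59 CPM (SD, n = 3), where 2.30% of 9928 genes were called and 0.463% were called lower. It also differed among the 4 genotypes (edgeR adjusted p = 0.00754, 4.08% of genes called).

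The Ier2 call in E2-KO held in 14 of 17 alternatives, with log2 changes from -1.31 to -0.90 over the libraries left out. It was lost without WT T1 (adjusted p = 0.0531), WT T2 (0.0774) or E2-KO T1 (0.0776), and held without E2-KO T3 (-0.90, adjusted p = 0.0305), the library with the fewest UMIs. In the same class, Jund was lower in E2-KO in 3 of 3 time points (means 36.1 and 57.1 CPM, log2 change -0.64, SE 0.28, edgeR adjusted p = 0.362) and so was Junb (means 11.2 and 17.0 CPM, -0.55, SE 0.23, adjusted p = 0.308), both short of the threshold. For Jund this depended on the fit. Without G12D/E2-KO T1, a library of neither E2-KO nor WT, Jund was called in E2-KO (edgeR adjusted p = 0.0301) at nearly the same log2 change (-0.63). It was then also called in G12D/E2-KO against WT (0.0105, from 0.480) and among genotypes (0.00210, from 0.301), each by edgeR. With no filter on low counts, where 2.97% of 17090 genes were called in E2-KO, the adjusted p of Jund there was 0.00356 (log2 change -0.66). That fit gave a lower p at nearly the same change, so it is not comparable with the main fit. In late GN-like cells, where Ier2 was highest, E2-KO held 142, 152 and 66.6 CPM and WT 122, 127 and 114 (log2 change -0.17, edgeR adjusted p = 0.676). The difference between the 2 classes was not tested.

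Ier3, known for its part in cell survival after stress, was also called in MEP/EryP/early Ery-like cells. It was at 3.53, 3.76 and 3.30 CPM in WT, 5.28, 4.20 and 4.80 in E2-KO, 4.45, 5.19 and 6.56 in G12D and 5.85, 4.73 and 12.4 in G12D/E2-KO. Every mutant library lay above every WT library, with G12D/E2-KO T3 far above the others, and 1.49% of genes in the class had all 9 mutant libraries on 1 side of WT. That split was picked after the values were seen, so the share is given as a description. Ier3 rose in G12D/E2-KO by 1.13 on the log2 scale (SE 0.31, edgeR adjusted p = 0.0471), where 4.23% of genes were called and 2.91% were called higher. The call was lost in 12 of 17 alternatives, among them the fits without G12D/E2-KO T3 (0.70, adjusted p = 0.228) and WT T3 (0.89, adjusted p = 0.292).

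Fos was called in late GN-like cells, on few molecules, after it passed the filter there only through libraries of the genotypes with floxed Ezh2. WT had 1, 6 and 5 UMIs (0.323, 1.21 and 1.12 CPM), E2-KO 6, 5 and 3 (3.64, 3.54 and 2.32), G12D 0.612, 1.33 and 1.83 CPM and G12D/E2-KO 23, 11 and 4 UMIs (3.64, 3.87 and 3.31 CPM). Both genotypes with floxed Ezh2 lay above WT and G12D with no overlap, a split that 3.96% of genes in the class had in either direction. This split, too, was picked after the values were seen. The log2 change of Fos in G12D/E2-KO against WT was 1.84 (SE 0.51, edgeR adjusted p = 0.0408), where 4.11% of 8736 genes were called and 2.67% were called higher. In E2-KO the log2 change was 1.64 (SE 0.60, adjusted p = 0.155). The filter's limit was 2.92 CPM, over which lay 0 WT, 2 E2-KO, 0 G12D and 3 G12D/E2-KO libraries. The filter thus favoured a difference, and the call is given as a description. In a fit with no filter, chosen after seeing the data, the log2 change was 1.82 (adjusted p = 0.0225), where 4.30% of 15911 genes were called. That p-value is not comparable with the main fit's. The call in G12D/E2-KO was lost in 13 of 17 alternatives, with adjusted p up to 0.161 and log2 changes from 1.49 to 2.05 over the libraries left out.

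In GMP/early GN-like cells Fos lay above WT in all 9 mutant libraries, and 1.74% of genes in the class had all 9 on 1 side of WT. The split was picked after the values were seen, so the share is given as a description. WT was at 3.93, 2.71 and 3.13 CPM, E2-KO at 4.97, 5.29 and 8.27, G12D at 6.21, 5.10 and 6.48 and G12D/E2-KO at 4.91, 4.02 and 7.61. By edgeR the log2 changes were 0.93, 0.96 and 0.74 (SE 0.33, 0.33 and 0.32), with adjusted p of 0.181, 0.634 and 0.220. No member was called in this class, where 1.36%, 0.147% and 2.88% of 10208 genes were.

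**Figure D3:**
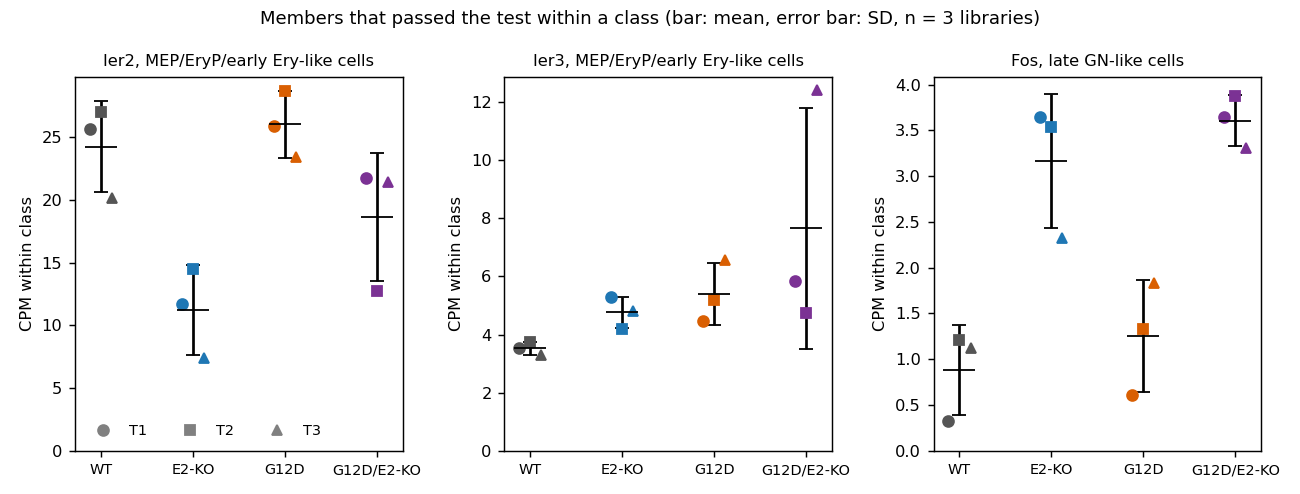
Level within the class (CPM, axes that start at 0) of the 3 members called within a class, by genotype. Symbols are libraries (T1 circle, T2 square, T3 triangle), the bar is the mean and the error bar the SD (n = 3). Ier2 in E2-KO (mean 11.2) lies below WT (mean 24.2 CPM), Ier3 in G12D/E2-KO is pulled up by T3 (12.4 CPM), and Fos in both genotypes with floxed Ezh2 lies above WT and G12D. Fos passed the filter on low counts only through these 2 genotypes.

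Time point gave 0 member calls within classes, of 31 tests. Of all tests of genes in classes, 0.0628% were called in the joint test of time point, 0.0129% at T2 against T1, 0.126% at T3 against T1 and 0.163% at T3 against T2. The nearest were Jund and Ier2 in GMP/early GN-like cells, T3 against T1, where 0.441% of genes were called. Sex also differed between these time points in WT, E2-KO and G12D, by Xist RNA. Jund was at 10.5, 8.86, 10.8 and 17.8 CPM at T1 and at 6.70, 3.54, 7.72 and 7.39 at T3, in the order WT, E2-KO, G12D, double mutant (log2 change -0.95, SE 0.25, edgeR adjusted p = 0.0731). Ier2 was at 83.7, 64.9, 79.6 and 70.3 CPM at T1 and at 58.1, 31.9, 62.7 and 57.8 at T3 (log2 change -0.55, SE 0.14, edgeR adjusted p = 0.0731). For both genes, 2 of the 6 members tested, each T3 library lay below each T1 library, and 5.61% of genes in the class had no overlap in that comparison. Jund passed the threshold with matched cells counted in both tables or without E2-KO T2 (adjusted p down to 0.0420), and Ier2 without G12D/E2-KO T2 (0.0467). Counting matched cells in both tables puts cells of G12D/E2-KO T1, the highest T1 library for Jund, into G12D T1 as well. These libraries are then not independent. With no filter on low counts Jund and Ier2 both passed the threshold (adjusted p 0.00506 for Jund and 0.0171 for Ier2), where 2.33% of 16832 genes were called. Their log2 changes were the same as in the main fit, with which these p-values are not comparable.

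A pattern picked after its values were seen was that of Ier3 in late Ery-like cells. It had 1, 0 and 1 UMIs in WT and 1, 0 and 1 in G12D, but 11, 10 and 19 in E2-KO and 15, 3 and 5 in G12D/E2-KO. These were 0.646 CPM pooled in WT and 1.04 in G12D, against 8.08, 8.41 and 8.81 in E2-KO and 10.8, 3.55 and 11.4 in G12D/E2-KO. All 6 libraries of the genotypes with floxed Ezh2 lay above the other 6, a split that 1.92% of the 5364 genes tested in the class had in either direction. Ier3 was under the filter on low counts there and was not tested with all 12 libraries. The share is thus of genes with higher counts, and it was not taken over genes at the level of Ier3. In 5 fits with a library left out it passed the filter, through the groups in which it was high, and was called among genotypes in 5 of 5 and in E2-KO against WT in 4 of 5, calls that the filter favours and that are given as a description. With no filter and all 12 libraries, a fit chosen after seeing the data, the adjusted p among genotypes was 5.53e-05, where 2.40% of 14398 genes were called. Fits with no filter also gave other members a lower adjusted p at nearly the same change. For Jund in MEP/EryP/early Ery-like cells, E2-KO against WT, it went from 0.362 to 0.00356 by edgeR (log2 change -0.64 and -0.66). Such p-values are therefore not comparable with those of the main fit.

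To set genotype and time point beside the rest of the spread, the spread of each member's log2 CPM over the 12 libraries was split into genotype, time point and a remainder. Since a genotype has 1 library at a time point, the remainder holds both what is particular to a library and any difference between genotypes in their change over time, which cannot be told apart. The parts are sums of squares, not divided by their degrees of freedom (3 for genotype, 2 for time point and 6 for the remainder). Which part is largest therefore leans towards the remainder and away from time point. The medians over all genes were split the same way. Genotype took the largest part for 5 members (Egr1 74.8%, Ier2 65.8%, Fos 59.0%, Ier3 43.1% and Zfp36 42.6%), time point for 0, and the remainder for 3 (Jund 57.0%, Jun 54.5% and Junb 51.6%). The medians over all genes tested were 41.1% for genotype, 16.3% for time point and 36.4% for the remainder, so the genotype part was above the median gene's for Egr1, Ier2 and Fos, closely above it for Junb (47.1%), Ier3 and Zfp36, and below it for Jund (13.5%) and Jun (20.8%). The largest time parts were those of Ier3 (36.6%) and Jund (29.5%). On log2(CPM + 1) genotype led for 5 members, time point for 0 and the remainder for 3, with 64.7% for genotype in Ier2 and 61.3% in Egr1. On that scale with the 7 tested classes weighted equally and all other cells left out, genotype led for 2 members (Zfp36 43.1% and Jund 42.3%), time point for 1 (Jun 42.4%) and the remainder for 5. For Ier2 the genotype part was then 36.4% and for Egr1 41.9%, beside a median of 32.3% over all genes. Within classes the genotype part of Ier2 differed. It was 77.8% in MEP/EryP/early Ery-like cells (median gene 33.3%), 46.0% in Meg-like, 43.8% in late Ery-like, 43.5% in GMP/early GN-like and 35.9% in ProMo-like cells (median gene 31.7%), 25.6% in HSC/MPP-like (27.4%) and 21.6% in late GN-like cells (33.4%). In Meg-like cells Ier2 was over the filter's limit (37.0 CPM) in 1 WT, 0 E2-KO, 3 G12D and 1 G12D/E2-KO libraries, so the filter favoured a difference there. For Fos the genotype part was 65.0% in GMP/early GN-like and 16.3% in ProMo-like cells. It was 76.9% in late GN-like cells, where the filter favoured a difference.

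**Figure D4:**
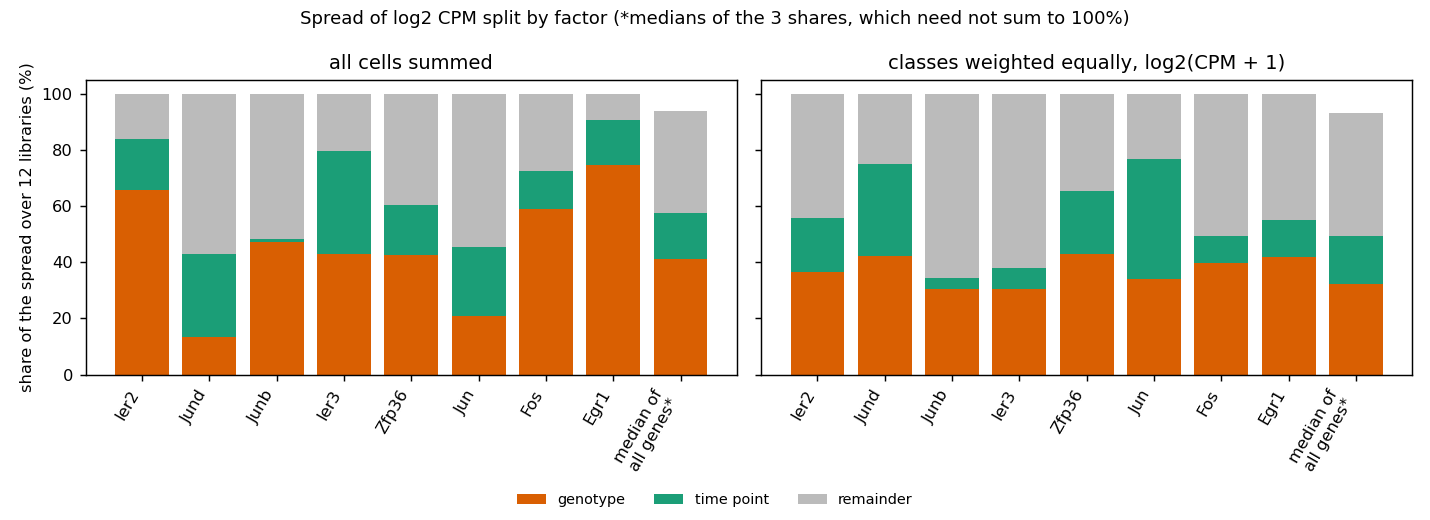
Share (%) of each member's spread of log2 CPM over the 12 libraries that goes with genotype, with time point and with the remainder, for all cells summed (left) and the 7 tested classes weighted equally on log2(CPM + 1) (right), beside the medians over all genes tested. Genotype leads for 5 members on the left and 2 on the right, with parts not divided by their degrees of freedom.

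The single libraries that stood farthest from the fit of genotype and time point differed from member to member. Jund in G12D/E2-KO T1 was 0.66 above its fit on the log2 scale, Junb in E2-KO T3 was at -0.56 and Fos in G12D T2 at -0.52. The other 5 members had their largest deviations, of 0.30 to 0.38 in size, in E2-KO T1, G12D T3 and the 3 G12D/E2-KO libraries. In G12D/E2-KO T1, 7 of 8 members lay above the fit, whereas in G12D/E2-KO T2 and in WT T1 only 1 of 8 did in each. With 3 libraries in a genotype, a library above its fit pushes the others below, so these counts are not independent. Over all genes, E2-KO T3 and G12D/E2-KO T3 each held the largest deviation of 16.8% of genes, and G12D/E2-KO T1 of 10.9%.

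The same libraries stood apart within classes. Jund was highest of the 12 libraries in G12D/E2-KO T1 in 6 of 7 classes. In late GN-like cells it was there at 22.3 CPM, against 6.40 to 12.1 in the other 11 libraries. E2-KO T3 was the lowest library for Jund in 5 of 7 classes and for Junb and Ier2 in 4 each, and for Ier2 it was among the 3 lowest in 7 of 7. This library had the fewest UMIs (12636998) and the lowest median per cell (3780.5, against up to 6975.5 in WT T2). Mitochondrial genes held 4.54% of its UMIs, within the range of 3.49% (G12D/E2-KO T1) to 5.75% (G12D/E2-KO T3), and Malat1 was at 3089 CPM there, within 2259 to 3228. The part of depth in the low values of E2-KO T3 was not tested.

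**Figure D5:**
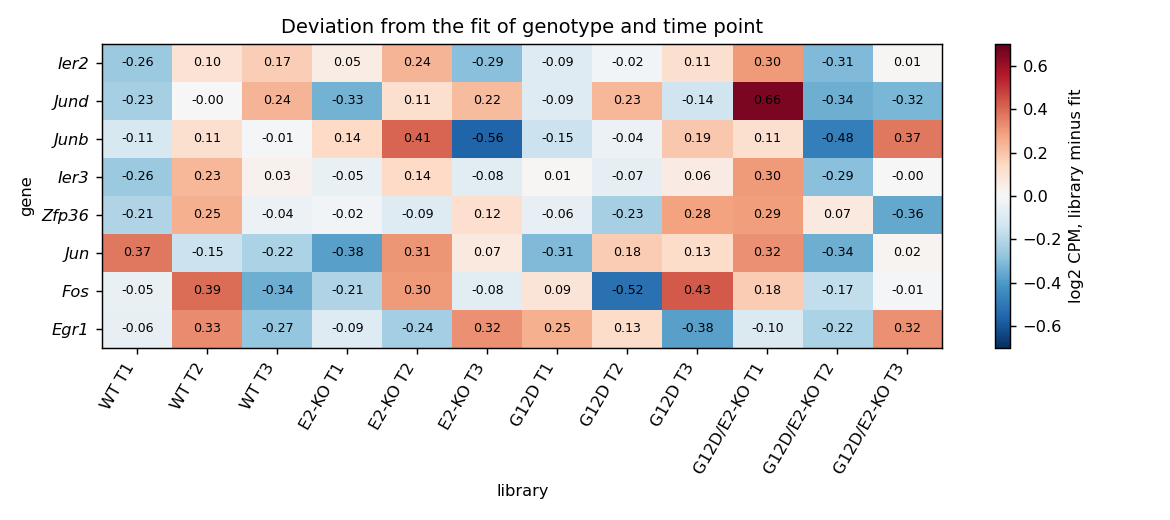
Deviation of each library from the fit of genotype and time point (log2 CPM, library minus fit; red above, blue below) for 8 members (rows) and 12 libraries (columns). Jund in G12D/E2-KO T1 (0.66) and Junb in E2-KO T3 (-0.56) are the darkest cells.

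Heat shock genes are also known to be induced by handling. The 12 listed genes, most of whose UMIs came from abundant chaperone genes such as Hsp90ab1, Hspa8, Hsp90aa1 and Hspe1, summed to 2825 CPM in G12D/E2-KO T1, the lowest of the 12 libraries, to 3743 in E2-KO T3, and to 4388 at most (E2-KO T2). The inducible genes of low level were ordered otherwise. Hspa1a, an inducible Hsp70 gene, stood at 0.494 CPM in G12D/E2-KO T1, with 0.0791 in E2-KO T3 (0.0512 to 0.653 over the libraries, median 0.122), and Hspa1b, the other, at 0.224 and 0.237 (0.0423 to 0.788, median 0.186). Hspb1, a small heat shock protein gene, had its highest values in these libraries, 0.180 and 0.158 CPM, both within a few UMIs of 0. Bag3, a co-chaperone gene, had its highest value in E2-KO T3 (6.49 CPM, against 2.38 to 6.09 in the other 11 libraries, among which G12D/E2-KO T1 had 3.95). The part of handling in the values of these libraries was not tested. In G12D/E2-KO against WT, 3 of the 9 tested heat shock genes were lower by edgeR (1.96% of all genes were) and 0 higher (3.73% of all genes were), namely Hsph1 (log2 change -0.79, adjusted p = 0.0240), Hsp90aa1 (-0.59, adjusted p = 0.0451) and Dnajb1 (-0.52, adjusted p = 0.0496). Neither E2-KO nor G12D nor the time points had a call in the list. The list was tested in sums over all cells only, so the part of class make-up was not tested.

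Of 59 other early response genes listed, 58 were in the tables and 51 were tested. They were tested in sums over all cells only, where class make-up and level within cells cannot be told apart. Among genotypes 5 of 51 were called by edgeR, against 5.44% of all genes: Nfkbia, Maff, Rhob, Id2 and Id1. Nfkbia, the NF-kappa-B inhibitor that NF-kappa-B itself induces, fell in E2-KO by 0.66 on the log2 scale (SE 0.13, adjusted p = 0.0311), from 79.9 ± 17.1 to 50.9 ± 9.43 CPM (SD, n = 3), and was the 1 gene of the list called there, where 0.288% of all genes were called lower. In G12D/E2-KO 3 of 51 were higher, against 3.73% of all genes, and 0 lower: Maff, a small Maf factor (log2 change 2.71, SE 0.55, adjusted p = 0.0225, from 0.139 to 0.978 CPM), the BMP target Id1 (0.87, SE 0.19, adjusted p = 0.0304) and the small GTPase gene Rhob (0.79, SE 0.17, adjusted p = 0.0282). The WT mean of Maff lay within the range that 3 UMIs were worth (0.127 to 0.237 CPM). At its levels Maff can have passed the filter on low counts only with libraries of G12D/E2-KO. The filter thus favoured a difference for Maff, and its calls are given as a description. In G12D 0 of 51 were called, and between time points 0. At an unadjusted p under 0.05 E2-KO had 3 of 51 (16.1% of all genes), G12D 13 (11.8%) and the double mutant 19 (26.2%). The median log2 change of the list against WT was 0.00 for E2-KO, 0.13 for G12D and 0.29 for the double mutant.

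By the rule set for likeness, Jund and Ier2, the 2 members at a mean of at least 20 CPM, were averaged on the log2 scale and compared with 4823 other genes over the 12 libraries. The 10 genes most alike were Mettl9 (Pearson r = 0.96), Atp6v1e1 and Wbp2 (0.94 each), Ubald2, Prr13, Dbnl and Slc25a11 (0.93 each), and Triobp, Aes and Rac2 (0.92 each). None is a listed early response or heat shock gene. The 12 points share libraries, depth and class make-up.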

How the data were processed

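Per the labels, c-Kit+ bone marrow cells of 12 libraries were sequenced with the 10x Genomics 3' kit. The authors mapped reads to mm10 with Cell Ranger, removed doublets (Scrublet) and cells over 10% mitochondrial UMIs, and deposited raw UMI counts per cell and gene, 1 table per library. Cell numbers carry no barcodes, so cells shared by tables were found by comparing their counts. Labels give the time points as T1 to T3, and these were used for groups, while the cell names inside the tables run from T0 to T2.

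Counts were summed per library, and per library and gated class, and tested with edgeR 4.0.16 (TMM, filterByExpr with a minimum count of 10, robust quasi-likelihood fit on genotype and time point, 6 residual degrees of freedom), with Benjamini-Hochberg adjustment over all genes at 0.05. Where nothing ties a library to animals, p-values measure the spread between libraries. In the main fits time point is a factor, so this is the spread left after genotype and time point. It includes any difference between genotypes in their change over time. Gates used the mean z score of marker genes (at least 0.5, and 0.25 above the next class); these limits were set after cells were seen. Classes were tested with at least 20 cells in every library. CPM are counts per 1000000 UMIs of the library or class, with no pseudocount. The fits were tested on simulated data. Neighbouring classes were compared by exact sign-flip permutation (two-sided). Alternatives used DESeq2 1.42.0 and limma 3.58.1 (trend, log2 of CPM + 1). R 4.3.3 and Python 3.11.15 were used.

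The members, marker lists and gene lists were chosen with earlier results of these data known. All members are named, with listed early response genes past the threshold (at most 5 per comparison by size of change), at most 3 heat shock genes, and the 10 genes most alike. The promoter of Egr1 is not reported here.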

Additional observations from a re-analysis of the deposited data

Results flagged for a closer look

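In each of the 3 time points, the highest and the lowest of the 4 libraries were set against the others by Dixon's gap-to-range ratio and its 95% critical value, for 10 members and thus 30 groups of 4. Chance flags about 1 in 20 groups, and 2 of 30 stood out. Jund in G12D/E2-KO T2 was low, at 23.2 CPM against 35.3 to 36.9 in the other T2 libraries (ratio 0.883). Fosb in G12D T1 was high, at 0.254 CPM against 0.0449 to 0.0594 (ratio 0.931), which is 5 UMIs against 1 in each of the others. No difference between the genotypes' changes over time was tested, since each genotype has 1 library at a time point.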

How the results depend on the processing

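Of the log2 changes of members in sums over all cells under the alternatives, 1006 kept their direction and side of the threshold, 6 passed it and 43 reversed, and no reversed change was called under any setting. The number of members called among genotypes (2) was 0 without time point in the fit (no replicate block; Ier2 adjusted p = 0.0839, Egr1 0.0681), 0 with cells as deposited, 0 with classes weighted equally (limma on log2(CPM + 1)), 1 with limma on log2(CPM + 1) alone (Ier2), and 0 to 2 with 1 library left out. Members called in E2-KO against WT (0) were 1 with DESeq2 and 1 with only the groups compared (Ier2, adjusted p = 0.0214 and 0.0276). Those in G12D/E2-KO (0) were 1 with DESeq2 and 1 with each cell weighted equally (Fos, adjusted p = 0.0472 and 0.0445), and 0 to 1 with 1 library left out. Within classes, calls among genotypes (1) ranged from 0 to 3 and calls in E2-KO (1) from 0 to 2 with 1 library left out, among them Ier3 in late Ery-like cells, which passed the filter on low counts only in such fits, and Jund in MEP/EryP/early Ery-like cells without G12D/E2-KO T1. Calls in G12D/E2-KO within classes (2) were 0 without the replicate block, 0 with cells as deposited, 1 with a wider gate margin and 0 to 2 with 1 library left out. Calls at T3 against T1 within classes (0) were 1 with cells as deposited, where G12D T1 and G12D/E2-KO T1 share cells, and 0 to 1 with 1 library left out. The members led by genotype, time point and remainder (5, 0 and 3) were 2, 1 and 5 with classes weighted equally on log2(CPM + 1), and 5, 0 and 3 on that scale alone. These counts rest on parts not divided by their degrees of freedom. With no filter on low counts within classes, calls were 5 among genotypes (1), 3 in E2-KO (1), 2 among time points (0) and 2 at T3 against T1 (0). In G12D/E2-KO they were then Fos in late GN-like cells and Ier3 in MEP/EryP/early Ery-like and late Ery-like cells. The p-values of these fits are not comparable with those of the main fit.

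Reversed with classes weighted equally were, in E2-KO against WT, Jun (0.03), Egr1 (-0.37) and Zfp36 (0.06), Jund in G12D (0.18), Jund (0.11) and Egr1 (-0.12) in G12D/E2-KO, Junb at T2 against T1 (0.16) and T3 against T1 (0.05), and Zfp36 at T3 against T2 (-0.01). With each cell weighted equally they were Jun (0.12) and Jund (0.11) in E2-KO and Zfp36 at T3 against T2 (-0.04). With cells as deposited they were Jun in E2-KO (0.00) and Egr1 at T2 against T1 (-0.09). With Xist RNA as a covariate they were Junb in G12D/E2-KO (-0.16), at T3 against T1 (0.42) and at T3 against T2 (0.47), and Zfp36 at T3 against T2 (-0.53). Without the replicate block it was Junb at T3 against T2 (0.04). With 1 library left out, the ranges that crossed 0 were, in E2-KO, Jun (-0.25 to 0.26), Egr1 (-0.03 to 0.56) and Ier3 (-0.23 to 0.10). In G12D/E2-KO they were Junb (-0.17 to 0.36), Ier2 (-0.28 to 0.12) and Zfp36 (-0.03 to 0.39). At T2 against T1 they were Jun (-0.39 to 0.03), Junb (-0.23 to 0.17), Jund (-0.40 to 0.12) and Egr1 (-0.01 to 0.38), at T3 against T1 Fos (-0.36 to 0.04) and Junb (-0.25 to 0.16), and at T3 against T2 Junb (-0.26 to 0.21) and Zfp36 (-0.12 to 0.20). The causes were not tested.

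Libraries with the same time point deviated together in part (18 pairs, r -0.13 to 0.35, median 0.12, 11 over 0.1, against a median of -0.05 in 36 other pairs), and since not every pair was over 0.1, time point was not taken to pair libraries. It is a factor of the design in either case. Added after seeing the data were limma on log2(CPM + 1) of the sums, the class fits with no filter, and pooled levels in small classes without the library with the most UMIs of the gene. So were the shares of genes within classes that had joined genotypes on 1 side of the rest. The split of the spread without 1 library was not run, since the layout is then unbalanced. Depth limits Egr1 (4 UMIs in each G12D library), Fosb and Atf3. Each arm has 3 libraries, so 1 library can decide a call.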
